A study of Arabidopsis thaliana with 12 samples.

Results

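The genes described here encode 10 enzymes that lead from phenylalanine to the monolignols, the phenolic alcohols from which lignin is built. They were chosen by name and locus, with earlier results of these data known. Included were the phenylalanine ammonia-lyases PAL1, PAL2 and PAL4, the cinnamate 4-hydroxylase C4H, and the 4-coumarate:CoA ligases 4CL1 and 4CL2. The others were the hydroxycinnamoyltransferase HCT, the methyltransferase CCoAOMT1, the cinnamoyl-CoA reductase CCR1 and the cinnamyl alcohol dehydrogenase CAD5. Together these are 10 of the 33557 genes in the deposited table, and all 10 passed the filter on low values. The messenger RNA of whole roots of Arabidopsis thaliana, ecotype Col-0, was sequenced as stranded single-end reads of 50 bases. Every group had spent 7 days on plates of Johnson's medium with 1 mM phosphate. Then came 2 days without phosphate, on plates of the medium labelled J-P. Seedlings then stood in liquid J-P, which for the treated groups contained 30 µM As(V), that is arsenate, and for the others was a mock treatment. Roots were collected after 1.5, 6 or 24 h, with 2 libraries for each treatment and time, 12 in all, and a sample was 60 seedlings. The labels do not say whether the libraries of a group came from separate cultures, so p-values measure only the spread between these samples, which may be technical.

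In plants, PAL removes ammonia from phenylalanine to give cinnamate, C4H adds a hydroxyl group and 4CL couples the product to coenzyme A, and this general pathway feeds lignin, flavonoids and coumarins alike. HCT and the enzymes around it lead on towards caffeoyl-CoA, CCoAOMT1 methylates that to feruloyl-CoA, and CCR and CAD reduce the thioester through an aldehyde to the alcohol. In roots the products are deposited as lignin in the walls of xylem vessels and in the Casparian strip, the ring of lignin around each cell of the endodermis. Arsenate resembles phosphate and enters roots through phosphate transporters.

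Values are FPKM, reads per gene scaled for gene length and library size by the authors. Differences are log2 fold changes on the log2(FPKM + 1) scale with their standard error (SE), As(V) minus mock unless stated, from limma fitted to all 12 libraries and 19826 genes, and "called" means a Benjamini-Hochberg adjusted p below 0.05. Estimated reads in genes ran from 12.6 to 15.6 M per library, and for the 10 genes from 68 reads (PAL4) to 32157 reads (CCoAOMT1) in a library. Replicate libraries correlated at 0.983 to 0.990 across genes. The size by which the authors scaled a library was 0.640 and 0.656 of its estimated reads in the 1.5 h As(V) libraries and 0.445 and 0.460 in those at 6 h, against 0.996 to 1.05 in mock and 1.06 to 1.12 in As(V) at 24 h. All libraries were also scaled to their totals of estimated reads instead. This moved the median of all genes from −0.09 to −0.62 at 1.5 h, from −0.12 to −1.07 at 6 h and from −0.06 to 0.03 at 24 h. The share of called genes that were higher then went from 47.2% to 19.9% at 1.5 h, from 48.8% to 19.1% at 6 h and from 44.7% to 51.5% at 24 h. Directions below are relative to the deposited scale, and values with library totals stand beside the member and list results whose calls they change. Of 7 root genes listed as tissue markers all were detected. All 7 were lower with As(V) at 1.5 h and 24 h and 6 at 6 h, or 7 at 6 h with library totals. Their summed FPKM was 326 to 1915 per library, and that of 6 leaf genes was 39.5 to 219.

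The lignin genes of Arabidopsis are known to carry AC elements, short motifs rich in A and C bound by MYB factors, and the stretch before each gene's start was searched because most of these genes moved together. The windows are the 300 bases upstream of the RefSeq gene start in the TAIR10.1 genome; the deposited files hold no coordinates and were made on TAIR10 per the submitters' processing notes. Shown are 4 genes that fell with As(V) and hold an element (4CL2, HCT, CCoAOMT1, CCR1), CAD5, which holds one and rose, and C4H, which rose at 6 h and holds none. They lie at chr3:7457405-7457704, minus strand (4CL2), chr5:19838236-19838535, minus strand (HCT), chr4:16310109-16310408, plus strand (CCoAOMT1), chr1:5478303-5478602, plus strand (CCR1), chr4:16388941-16389240, minus strand (CAD5) and chr2:12996013-12996312, minus strand (C4H). Each is printed 5′ to 3′ along the gene's own strand, with AC elements in capitals.
4CL2: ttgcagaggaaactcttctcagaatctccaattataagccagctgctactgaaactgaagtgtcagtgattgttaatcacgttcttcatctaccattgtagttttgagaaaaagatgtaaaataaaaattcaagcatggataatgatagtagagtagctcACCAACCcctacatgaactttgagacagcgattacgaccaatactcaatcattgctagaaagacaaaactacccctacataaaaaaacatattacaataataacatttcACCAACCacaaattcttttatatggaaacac
HCT: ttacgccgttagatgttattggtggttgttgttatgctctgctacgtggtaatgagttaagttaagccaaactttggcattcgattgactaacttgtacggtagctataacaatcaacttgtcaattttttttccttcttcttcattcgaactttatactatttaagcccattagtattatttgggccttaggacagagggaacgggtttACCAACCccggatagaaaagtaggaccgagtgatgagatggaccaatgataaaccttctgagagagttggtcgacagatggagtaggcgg
CCoAOMT1: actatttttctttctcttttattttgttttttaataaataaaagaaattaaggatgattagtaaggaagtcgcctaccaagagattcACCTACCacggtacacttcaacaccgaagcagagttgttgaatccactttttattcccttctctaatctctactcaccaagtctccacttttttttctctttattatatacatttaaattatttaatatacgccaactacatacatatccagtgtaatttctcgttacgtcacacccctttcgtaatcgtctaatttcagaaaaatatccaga
CCR1: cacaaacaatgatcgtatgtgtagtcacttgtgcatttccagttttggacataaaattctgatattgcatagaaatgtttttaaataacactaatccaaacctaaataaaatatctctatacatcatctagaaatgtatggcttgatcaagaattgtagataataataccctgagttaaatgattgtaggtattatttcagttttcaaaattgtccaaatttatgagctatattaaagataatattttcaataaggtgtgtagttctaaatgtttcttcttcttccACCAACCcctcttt
CAD5: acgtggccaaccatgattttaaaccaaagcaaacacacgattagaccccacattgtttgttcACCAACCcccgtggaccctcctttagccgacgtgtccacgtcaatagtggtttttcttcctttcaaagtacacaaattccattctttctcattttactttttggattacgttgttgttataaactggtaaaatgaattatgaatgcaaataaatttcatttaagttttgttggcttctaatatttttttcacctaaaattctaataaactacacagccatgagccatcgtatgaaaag
C4H: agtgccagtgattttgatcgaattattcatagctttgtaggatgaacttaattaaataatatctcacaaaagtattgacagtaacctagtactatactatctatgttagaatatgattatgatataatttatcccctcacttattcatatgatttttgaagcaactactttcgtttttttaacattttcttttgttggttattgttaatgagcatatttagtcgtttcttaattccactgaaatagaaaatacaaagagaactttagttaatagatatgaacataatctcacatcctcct

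The motifs searched on both strands were AC-I (ACCTACC), AC-II (ACCAACC) and AC-III (ACCTAAC), the W-box core bound by WRKY factors (TTGAC) and the G-box bound by bZIP and bHLH factors (CACGTG). Among 27443 promoters of protein-coding genes, 7.16% held at least 1 AC element, as did 5 of the 10 genes. 4CL2 had AC-II at positions −140 to −134 and −31 to −25 from the start, HCT at −90 to −84, CCR1 at −14 to −8 and CAD5 at −238 to −232, and CCoAOMT1 had AC-I at −213 to −207. AC-II occurred in 3.18% of all promoters and in 4 of the 10, AC-I in 1.33% and in 1, and AC-III in 2.93% and in none. The W-box core was in 50.4% of all promoters and in 5 of the 10, and the G-box was in 7.09% and in PAL4 alone. The 3 PAL genes, C4H and 4CL1 held no AC element in this window. No 2 matches in these 10 windows overlapped, and a match is a description of these letters only.

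With As(V), 8 of the 10 genes fell at 1.5 h and at 6 h and 7 at 24 h, while CAD5 rose at 1.5 h and CAD5 and C4H rose at 6 h. Among all genes tested, 33.7% were called lower and 30.0% higher at 1.5 h, 37.5% and 35.8% at 6 h, and 36.3% and 29.4% at 24 h, so that a call in itself was common. The 10 genes had a median difference of −1.16 at 1.5 h, −1.58 at 6 h and −0.54 at 24 h, beside −0.09, −0.12 and −0.06 over all genes. Scaled to library totals the members' medians were −1.75, −2.76 and −0.44, with 9, 8 and 7 genes lower and 0, 1 and 1 higher. On the deposited scale, the summed FPKM of the 10 genes at 1.5 h was 4310 to 4400 in mock and 2245 to 2621 with As(V). It was 2712 to 2922 and 2523 to 2876 at 6 h, and 3676 to 3750 and 2215 to 2342 at 24 h. C4H alone made up 70.2% and 71.6% of the As(V) sums at 6 h, beside 21.6% and 23.4% in mock. The 6 h sums also depend on the scaling. Library totals multiplied the As(V) libraries of 6 h by 0.531 and 0.550 and the mock libraries of 6 h by 1.25 and 1.26. In bulk roots, fewer cells of a type and less RNA per cell cannot be told apart.

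**Figure D1:**
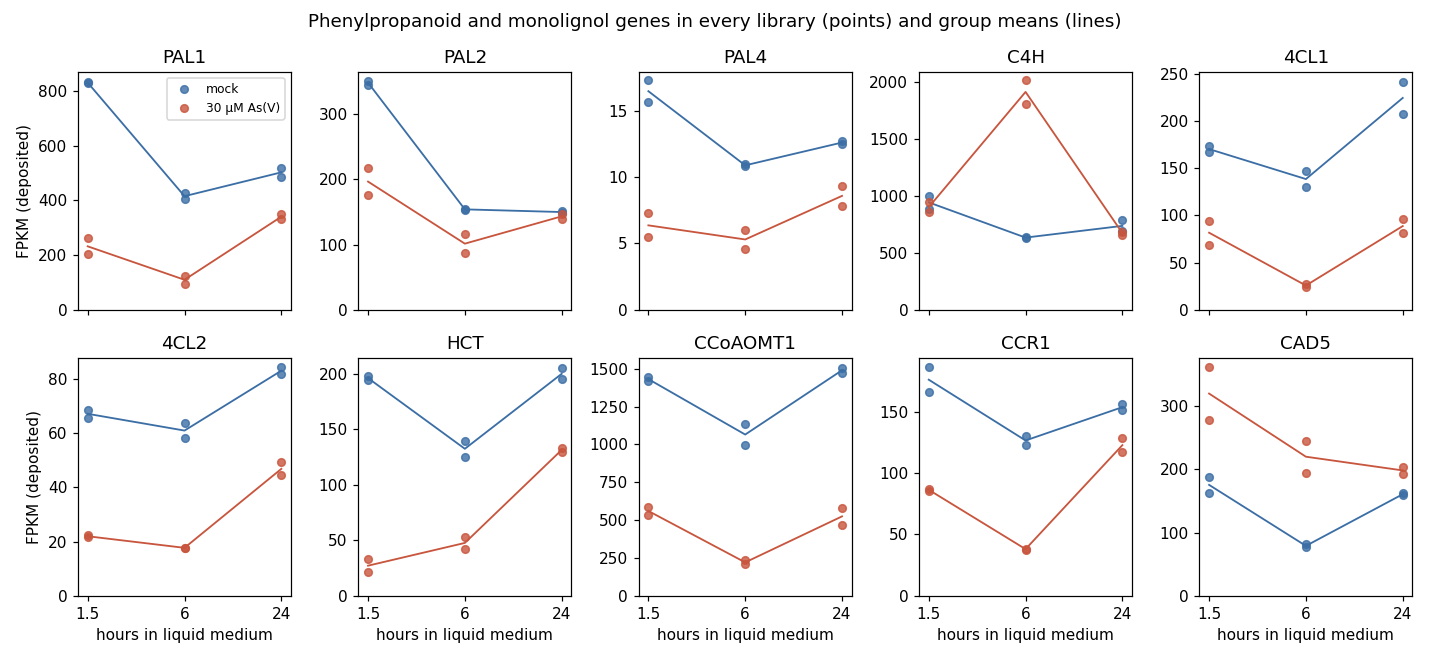
FPKM (vertical axes, linear, from 0) of each of the 10 genes in every library against time in liquid medium (horizontal axis, 3 times evenly spaced); points are libraries, lines join the means of 2. The As(V) points lie below the mock points at 1.5 and 6 h for 8 genes, C4H reaches 2019 and 1806 FPKM in the 6 h As(V) libraries, and CAD5 lies above mock at each time.

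At the entry step, all 3 PAL genes measured here fell at 1.5 and 6 h, PAL1 most. PAL1 (AT2G37040, chr2:15557367-15560755 in TAIR10.1) stood at 828 and 833 at 1.5 h, 426 and 405 at 6 h and 519 and 486 at 24 h FPKM in the mock libraries. In the As(V) libraries it stood at 261 and 203 at 1.5 h, 124 and 95.4 at 6 h and 349.9 and 331 at 24 h. Every As(V) library was below both mock libraries of its time, and the gap was narrowest at 24 h. The difference was −1.85 ± 0.12 at 1.5 h (adjusted p = 1.90e-07, limma), −1.92 ± 0.12 at 6 h (adjusted p = 9.98e-08) and −0.56 ± 0.12 at 24 h (adjusted p = 0.00151).

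PAL2 (AT3G53260, chr3:19744018-19747114), the other PAL gene at high FPKM here, had 352 and 345 at 1.5 h, 155 and 153 at 6 h and 148 and 152 at 24 h FPKM in mock. With As(V) it had 218 and 176 at 1.5 h, 116 and 86.7 at 6 h and 148 and 139 at 24 h. It was lower at the first 2 times and nearly level at 24 h, where the lowest mock and the highest As(V) library read 147.8 and 147.5 FPKM. Its difference was −0.83 ± 0.12 at 1.5 h (adjusted p = 8.99e-05, limma) and −0.61 ± 0.12 at 6 h (adjusted p = 8.77e-04). At 24 h it was −0.06 ± 0.12 and not called (adjusted p = 0.649, 95% interval −0.32 to 0.19), with a sign that turned to 0.04 under both other scalings. The PAL1 share of the FPKM of the 4 PAL genes was 69.2% and 69.8% in mock and 53.7% and 52.8% with As(V) at 1.5 h, 71.9% and 71.2% and 50.7% and 50.7% at 6 h, and 76.4% and 74.7% and 69.2% and 68.98% at 24 h. Of the 50-base windows of PAL1 and PAL2, 1.09% and 1.11% occur elsewhere in the genome, and none of those of the other 8 genes do.

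PAL4 (AT3G10340, chr3:3203988-3208135) was expressed far lower per length, with 17.3 and 15.6 at 1.5 h, 10.8 and 10.96 at 6 h and 12.5 and 12.7 at 24 h in mock. The As(V) libraries gave 7.27 and 5.44 at 1.5 h, 4.58 and 6.01 at 6 h and 7.81 and 9.35 at 24 h. All As(V) libraries were below the mock libraries, and the difference at 1.5 h was −1.26 ± 0.13, at 6 h −0.92 ± 0.15 and at 24 h −0.52 ± 0.10, called each time (adjusted p = 7.35e-06, 2.19e-04 and 0.00115, limma). The remaining family member, PAL3, was at most 0.0358% of the family's FPKM in any library and was not tested.

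C4H (AT2G30490, chr2:12993625-12996012), the cytochrome P450 that hydroxylates cinnamate and is encoded by a single gene in Arabidopsis, took another course. Its mock values were 1003 and 883 at 1.5 h, 632 and 636 at 6 h and 689 and 784 at 24 h. Its As(V) values were 946 and 855 at 1.5 h, 2019 and 1806 at 6 h and 661 and 686 at 24 h. The groups overlapped at 1.5 h, and on the deposited scale both As(V) libraries of 6 h were far above every other library of the series. With library totals C4H was −0.50 in mock at 6 h against mock at 1.5 h. The As(V) difference at 6 h was then 0.38, so the As(V) group of 6 h was not above mock at 1.5 h. The difference at 6 h was 1.59 ± 0.08 (adjusted p = 1.27e-08, limma), and scaled to library totals it was still higher at 0.38 (adjusted p = 7.97e-04). At 1.5 h it was −0.07 ± 0.08 (adjusted p = 0.519, 95% interval −0.25 to 0.12), but −0.69 and called lower with library totals (adjusted p = 1.02e-05) and 0.01, not called, with median-of-ratios scaling. At 24 h it was −0.13 ± 0.08 and not called (adjusted p = 0.208, 95% interval −0.31 to 0.06). Of the summed FPKM of the 10 genes, C4H made up 21.6% and 23.4% in mock and 70.2% and 71.6% with As(V) at 6 h, shares that no scaling of libraries changes.

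Both 4CL genes fell at every time, 4CL1 furthest at 6 h. 4CL1 (AT1G51680, chr1:19158746-19161737) had 167 and 174 at 1.5 h, 147 and 129.8 at 6 h and 208 and 241 at 24 h FPKM in mock. With As(V) it had 94.4 and 69.02 at 1.5 h, 24.3 and 27.1 at 6 h and 96.1 and 81.3 at 24 h. No As(V) library reached a mock library, and the difference at 1.5 h was −1.07 ± 0.14, at 6 h −2.38 ± 0.16 and at 24 h −1.33 ± 0.13 (adjusted p = 4.43e-05, 1.39e-07 and 6.50e-06, limma). The locus overlaps AT1G51670 on the opposite strand, and since the strand setting of the counting is not given in the sources used here, reads of the pair may not be fully separated.

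4CL2 (AT3G21240, chr3:7454269-7457404) had 65.5 and 68.5 at 1.5 h, 63.5 and 58.2 at 6 h and 81.6 and 84.3 at 24 h FPKM in mock. It had 22.4 and 21.5 at 1.5 h, 17.6 and 17.8 at 6 h and 49.2 and 44.3 at 24 h with As(V). The groups were apart each time, and the differences were −1.57 ± 0.08, −1.72 ± 0.09 and −0.81 ± 0.06 (adjusted p = 1.60e-08, 7.77e-09 and 8.99e-07, limma). Within the 4CL family the composition also shifted at 1.5 h: 4CL3, the ligase tied to flavonoid synthesis, fell from 132 and 116 to 6.03 and 3.26 FPKM. Its share of the family went from 33.6% and 29.8% to 4.58% and 3.24%, and that of 4CL1 from 42.5% and 44.8% to 71.7% and 68.7%.

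HCT (AT5G48930, chr5:19836299-19838235), which joins coumaroyl-CoA to shikimate ahead of the next ring hydroxylation, had the largest fall of the 10 genes at 1.5 h. Its mock values were 194 and 198 at 1.5 h, 139.6 and 125 at 6 h and 195 and 205 at 24 h. Its As(V) values were 32.8 and 21.6 at 1.5 h, 53.2 and 42.3 at 6 h and 129.7 and 133 at 24 h. It was lowest with As(V) at 1.5 h, and at 24 h it lay within the range of mock at 6 h but below mock at 24 h. The difference at 1.5 h was −2.83 ± 0.15, at 6 h −1.46 ± 0.14 and at 24 h −0.60 ± 0.12 (adjusted p = 2.83e-08, 2.37e-06 and 0.00101, limma).

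CCoAOMT1 (AT4G34050, chr4:16310409-16312308) was the most abundant of the 10 genes per length in every mock library. It read 1419 and 1444 at 1.5 h, 1136 and 994 at 6 h and 1506 and 1474 at 24 h FPKM in mock. It read 590.2 and 531 at 1.5 h, 234 and 209 at 6 h and 581 and 469.8 at 24 h with As(V). All 6 As(V) libraries were below all 6 mock libraries. The difference at 1.5 h was −1.35 ± 0.10, at 6 h −2.26 ± 0.10 and at 24 h −1.51 ± 0.10 (adjusted p = 4.18e-07, 3.47e-09 and 2.18e-07, limma), the last being the largest fall of the 10 at 24 h.

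CCR1 (AT1G15950, chr1:5478603-5482180), the reductase assigned to lignin formation in development, read 166 and 186 at 1.5 h, 130.3 and 123 at 6 h and 156 and 151 at 24 h FPKM in mock. It read 87.03 and 85.8 at 1.5 h, 37.8 and 38.4 at 6 h and 128 and 117 at 24 h with As(V). It was lower each time, with the smallest called difference of the 10 at 24 h. The differences were −1.02 ± 0.07, −1.71 ± 0.08 and −0.32 ± 0.07 (adjusted p = 2.05e-07, 3.35e-09 and 0.00121, limma). CCR1 overlaps AT1G15960 and the long non-coding RNA AT1G05213 on the opposite strand, with the same limit as for 4CL1.

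CCR2, the second cinnamoyl-CoA reductase and known for its induction by pathogens, is not among the 10 genes, but moved the other way in the same libraries. It was at 18.3 and 16.1 FPKM in mock and 249 and 232 with As(V) at 1.5 h, and at 14.3 and 16.5 and 78.6 and 81.8 at 6 h. The difference was 3.73 ± 0.10 and 2.31 ± 0.10, and −0.76 ± 0.13 at 24 h (adjusted p = 1.78e-10, 2.82e-09 and 2.88e-04, limma). CCR1 thus held 90.1% and 92.1% of the FPKM of the pair in mock and 25.9% and 27.00% with As(V) at 1.5 h, 90.1% and 88.2% and 32.5% and 31.97% at 6 h, and 91.2% and 89.1% and 92.9% and 92.7% at 24 h.

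CAD5 (AT4G34230, chr4:16386631-16388940), 1 of the 2 dehydrogenases that make most lignin alcohols in Arabidopsis, was the only one of the 10 genes called higher at 1.5 h on the deposited scale. Its mock values were 188 and 163 at 1.5 h, 81.6 and 76.5 at 6 h and 162 and 159 at 24 h. Its As(V) values were 362 and 278 at 1.5 h, 245 and 195 at 6 h and 193 and 204 at 24 h. Both As(V) libraries were above both mock libraries at each time. The difference was 0.85 ± 0.13 at 1.5 h (adjusted p = 1.52e-04, limma) and 1.46 ± 0.13 at 6 h (adjusted p = 2.08e-06), but with library totals 0.23 and 0.25, no longer called (adjusted p = 0.092 and 0.0705). At 24 h it was 0.30 ± 0.13 and not called (adjusted p = 0.0573); the replicate block, the fit of the compared groups alone and both other scalings called it, at 0.30 to 0.40 with adjusted p = 0.00922 to 0.0245.

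Its partner CAD4 (symbol ATCAD4) fell, from 438 and 438 to 65.4 and 64.02 FPKM at 1.5 h. The differences were −2.74 ± 0.09 at 1.5 h, −2.53 ± 0.10 at 6 h and −1.27 ± 0.09 at 24 h (adjusted p = 8.77e-10, 9.17e-10 and 3.13e-07, limma). CAD5 accordingly made up 29.99% and 27.1% of the FPKM of the pair in mock and 84.7% and 81.3% with As(V) at 1.5 h, 22.3% and 21.7% and 81.97% and 82.2% at 6 h, and 35.8% and 35.9% and 60.1% and 65.00% at 24 h. These shares do not depend on the scaling of libraries.

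**Figure D2:**
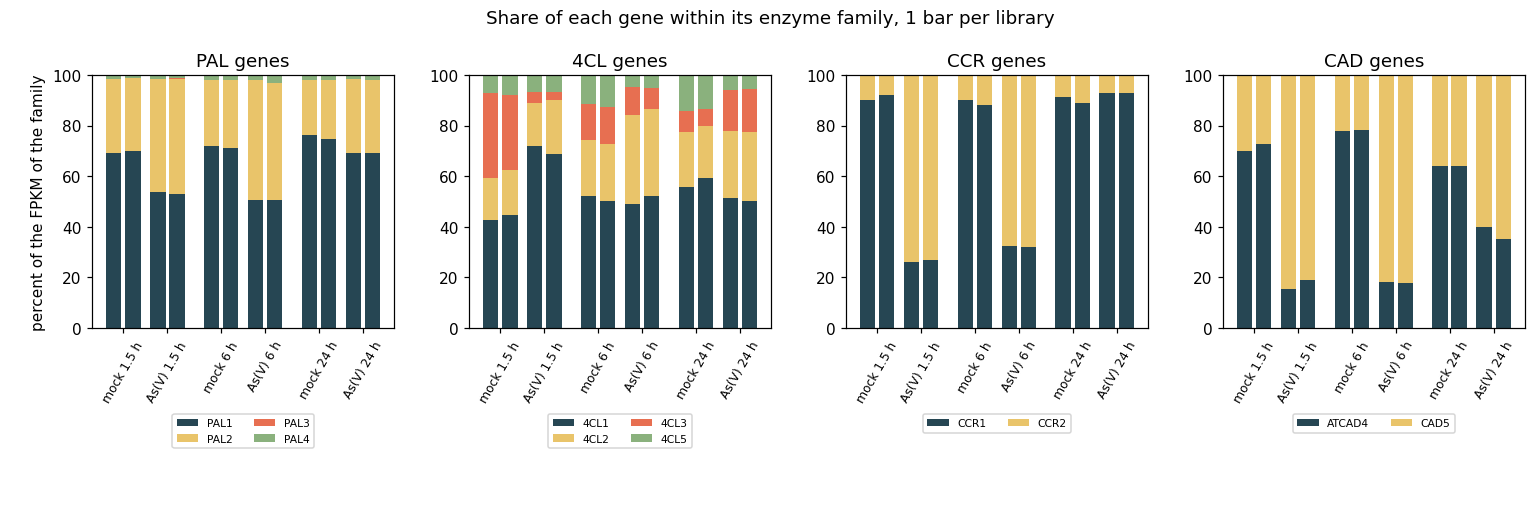
Share of each gene in the summed FPKM of its family (vertical axes, percent, stacked to 100) for the PAL, 4CL, CCR and CAD genes, 1 bar per library, 2 bars per group on the horizontal axis. CCR2 and CAD5 take over 65% and over 80% of their pairs in the As(V) libraries of 1.5 and 6 h.

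The genes also differed in when they moved. The As(V) difference was larger at 6 h than at 1.5 h, in the direction of a deeper fall, for 4CL1 (−1.32 ± 0.21), CCoAOMT1 (−0.91 ± 0.14) and CCR1 (−0.69 ± 0.10), and it moved up for C4H (1.66 ± 0.12), HCT (1.37 ± 0.20) and CAD5 (0.60 ± 0.18). These 6 passed limma's test of the difference itself, with adjusted p from 1.16e-06 (C4H) to 0.0216 (CAD5), where 17.6% of all genes passed downwards and 26.2% upwards. With library totals 5 genes passed downwards and 2 upwards: PAL1 (−0.65) and 4CL2 (−0.70) joined the deeper falls (adjusted p = 0.00529 and 0.00106, limma), and CAD5 was 0.02 and not called. PAL2, at 0.22 on the deposited scale, was called without the second As(V) library of 6 h (0.43). On the deposited scale CAD5 was 0.41 to 0.56 and not called without the first mock or second As(V) library of 1.5 h or without the second mock or first As(V) library of 6 h. From 6 h to 24 h the difference moved up for 7 genes, by 0.55 (PAL2) to 1.38 (CCR1), and down for C4H (−1.72 ± 0.12) and CAD5 (−1.16 ± 0.18), while PAL4 was not called (0.41 ± 0.19, adjusted p = 0.0764). Of all genes 26.8% passed upwards and 35.3% downwards. For PAL2 the call was lost without the second 6 h or the first 24 h As(V) library (0.34 and 0.51), and PAL4 was called without the latter (0.53). With library totals 8 genes passed upwards, PAL4 now among them (1.50, adjusted p = 1.13e-05, limma), by up to 2.67 (PAL1), while C4H fell less (−0.40) and CAD5 was 0.15 and not called. Between 1.5 h and 24 h the difference of HCT moved most, by 2.23 ± 0.19 (adjusted p = 2.51e-06), and 6 genes passed upwards and CAD5 downwards, beside 27.8% and 32.2% of all genes. With library totals 8 passed upwards and none downwards: C4H (0.67) and CCoAOMT1 (0.57) were then called higher (adjusted p = 2.52e-04 and 0.00539, limma), and the CAD5 value of −0.55 turned to 0.18, not called. The CAD5 call was also lost without the first As(V) library of 1.5 h (−0.36), the first of 24 h (−0.51) or the second mock library of 1.5 h (−0.45). 4CL1 and CCoAOMT1, at −0.26 and −0.16 on the deposited scale and not called, were called lower without the second As(V) library of 1.5 h (−0.48) and the first of 24 h (−0.31).

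In the mock libraries alone, these genes were not level over the day. From 1.5 to 6 h 8 of the 10 fell and none rose, where 11.6% of all genes were called lower and 9.37% higher. The largest differences were those of PAL2 (−1.17 ± 0.12), CAD5 (−1.14 ± 0.13) and PAL1 (−0.999 ± 0.12; adjusted p = 7.81e-05, 2.15e-04 and 2.20e-04, limma), while 4CL1 (−0.30 ± 0.13) and 4CL2 (−0.14 ± 0.06) were not called. Without the second mock library of 6 h HCT (−0.49) and CCoAOMT1 (−0.33) lost the call. From 6 to 24 h 6 genes rose and none fell, against 13.5% of all genes called higher and 10.1% lower, led by CAD5 (1.01 ± 0.13) and 4CL1 (0.69 ± 0.13), and without the second mock library of 6 h only 3 genes passed. Against 1.5 h, the mock level at 24 h was lower for 4 genes and higher for 2, with 11.7% and 12.4% of all genes called, and the lowest were PAL2 (−1.21 ± 0.12) and PAL1 (−0.72 ± 0.12). Of the higher genes 4CL1 only just passed (0.39 ± 0.13, adjusted p = 0.0494, limma) and was not called under 10 of the alternatives, among them median-of-ratios scaling and the replicate block. With 1 library left out, 4 or 5 of the 10 genes were called.

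In the As(V) libraries, 7 genes fell and C4H and HCT rose from 1.5 to 6 h, beside 19.8% of all genes called lower and 28.9% higher. The difference was −1.61 ± 0.16 for 4CL1 and −1.34 ± 0.11 for CCoAOMT1 (adjusted p = 1.09e-05 and 1.21e-06, limma), whereas C4H rose by 1.09 ± 0.08 (adjusted p = 1.09e-06). 4CL2 (−0.30 ± 0.10) lost its call without any 1 of the 4 libraries compared (adjusted p = 0.0511 to 0.0983, limma), CAD5 (−0.54 ± 0.13) without the first of 1.5 h or the second of 6 h (−0.35 and −0.37), and 7 or 8 genes passed with 1 library left out. With library totals PAL4 was called as well (−0.61, adjusted p = 0.00781). HCT rose by 0.81 ± 0.16 (adjusted p = 0.00159), but with library totals by 0.30 and not called. From 6 to 24 h 8 genes rose, by 0.51 (PAL2) to 1.75 (4CL1), and C4H fell (−1.50 ± 0.08), where 29.8% of all genes were called higher and 38.3% lower. CAD5 was −0.14 ± 0.13 and not called there, but 1.13 and called with library totals. Compared with 1.5 h, As(V) libraries of 24 h had 5 genes higher and 3 lower, beside 30.9% and 35.4% of all genes, and HCT was highest at 2.26 ± 0.15. The 3 lower genes, PAL2 (−0.45 ± 0.12), C4H (−0.42 ± 0.08) and CAD5 (−0.68 ± 0.13), were at 0.31, 0.34 and 0.077 with library totals, PAL2 and C4H then called higher. On that scale 9 genes were higher and none lower, with 4CL1 (0.88) and CCoAOMT1 (0.65) called besides. On the deposited scale, PAL4 lost its rise without the second As(V) library of 1.5 h (0.20) or of 24 h (0.27) and PAL2 its fall without the first of 1.5 h (−0.29). Ordered by level on the deposited scale, the lowest of the 6 groups was As(V) at 6 h for 7 of the 10 genes. It was As(V) at 1.5 h for HCT, and mock at 6 h for C4H and CAD5. On that same scale the ranges of the lowest and next groups overlapped for PAL4 alone. The order depends on the scaling. With library totals C4H was −0.69 in As(V) at 1.5 h and −0.50 in mock at 6 h, both against mock at 1.5 h, so the As(V) group was then lower.

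Across the 12 libraries, 18 of the 45 pairs of these genes had a Pearson r of log2(FPKM + 1) above 0.8 and 15 had one below 0. 4CL1 and CCoAOMT1 were the most alike (r = 0.98) and C4H and CCR1 the least (r = −0.82), and CAD5 had r from −0.62 (4CL2) to 0.47 (C4H) with the other 9. These are descriptions over libraries that share the treatment and the scaling. Outside the 10, the gene most like each of 9 by this measure over 12 libraries was KUP9, a potassium transporter, for 4CL1 (r = 0.994) and HDR, the last enzyme of plastid isoprenoid precursor synthesis, for C4H (r = 0.988). For HCT it was AT3G45210 (r = 0.997), for 4CL2 the methyltransferase-family gene AT4G36470 (r = 0.998), for CCR1 the disulfide isomerase-like APRL6 (r = 0.989) and for PAL1 AT1G77330 (r = 0.986). PAL4 was most like DHNAT1, a thioesterase (r = 0.973), CAD5 most like AT1G73810 (r = 0.970) and PAL2 most like the predicted galactinol synthase GolS3 (r = 0.953).

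Of the other 16 core enzymes of the same pathway 15 were tested: 4 were higher and 8 lower with As(V) at 1.5 h, 5 and 7 at 6 h, and 3 and 10 at 24 h, with medians of −0.74, −0.36 and −0.76. Scaled to totals instead, the counts higher and lower were 3 and 11 at 1.5 h, 4 and 11 at 6 h, and 4 and 9 at 24 h (medians −1.37, −1.20 and −0.67). Besides CCR2, the largest rises were those of ATR2, a reductase that passes electrons to C4H and other P450 enzymes, and of CAD1, annotated as a further cinnamyl alcohol dehydrogenase. ATR2 was at 95.4 and 97.6 FPKM in mock and 1963 and 2196 with As(V) at 6 h, a difference of 4.41 ± 0.12 after 3.50 ± 0.12 at 1.5 h and before 1.04 ± 0.13 at 24 h (adjusted p = 9.83e-11, 1.91e-09 and 2.91e-05, limma). CYP98A3, the P450 that hydroxylates the product of HCT, was picked out after its values were seen. Like C4H it was not called at 1.5 h (−0.17 ± 0.11), but lower with library totals (−0.796, adjusted p = 1.52e-05, limma), and it rose at 6 h, from 93.3 and 94.6 to 834 and 1026 FPKM (3.29 ± 0.11, adjusted p = 3.19e-10). The third P450 of the pathway, FAH1 (ferulate 5-hydroxylase), fell, with differences of −2.18 ± 0.23 at 1.5 h, −4.13 ± 0.49 at 6 h and −2.73 ± 0.22 at 24 h. CAD1 rose by 1.46 ± 0.12 at 1.5 h, 3.95 ± 0.12 at 6 h and 1.33 ± 0.12 at 24 h. Among the falls, 4CL5 had −3.22 ± 0.20 at 6 h, and AT4G26220, a relative of CCoAOMT1, had −3.17 ± 0.14 at 24 h. ATR1, the other P450 reductase, likewise chosen after its values were seen, was called higher at 1.5 h and 6 h (0.29 ± 0.06 and 0.48 ± 0.06) but lower with library totals (−0.34 and −0.72).

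**Figure D3:**
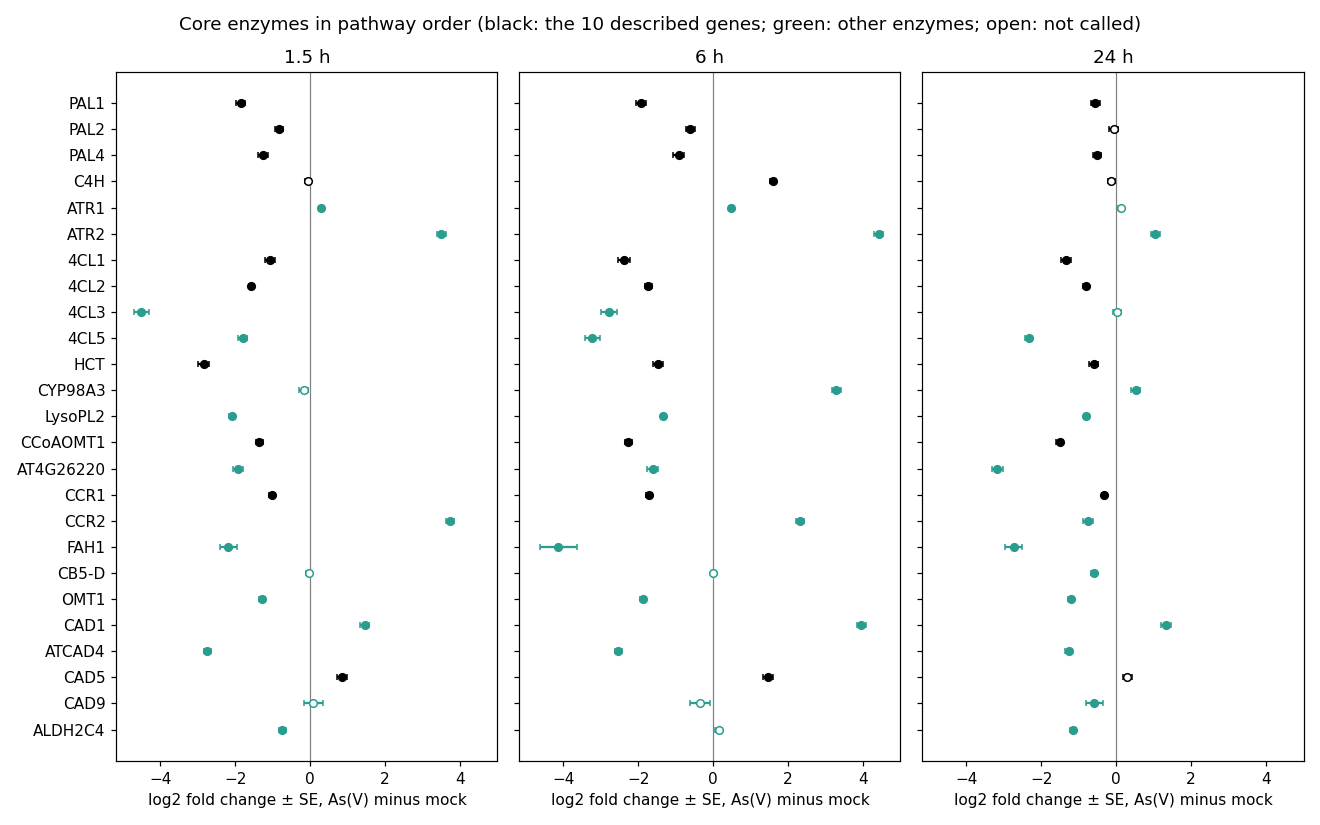
Log2 fold change ± SE, As(V) minus mock (horizontal axes), of the 10 genes (black) and the 15 other core enzymes tested (green) in pathway order from top to bottom, at each time; open symbols were not called. At 6 h the filled points to the right of 0 are C4H, ATR1, ATR2, CYP98A3, CCR2, CAD1 and CAD5, of which ATR1 turns lower and CAD5 is no longer called with library totals, and the PAL, 4CL, HCT, CCoAOMT1 and CCR1 points lie to the left.

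Upstream of PAL, all 20 genes of the shikimate pathway and of phenylalanine synthesis were tested: 8 were higher and 12 lower at 1.5 h, 12 and 5 at 6 h, and 6 and 6 at 24 h (medians −0.40, 0.49 and 0.01). With library totals the counts were 4 and 14, 5 and 12, and 8 and 5, so the median at 6 h turned from 0.49 to −0.65. The shikimate kinase SK1 rose by 3.21 ± 0.11 at 1.5 h, 4.88 ± 0.11 at 6 h and 1.48 ± 0.12 at 24 h, and the arogenate dehydratase PD1 (ADT3), which makes phenylalanine, by 1.26 ± 0.06, 3.92 ± 0.05 and 0.54 ± 0.06 at the same times; both stayed higher with library totals. The family member ADT5 fell, with differences of −1.77 ± 0.08 at 1.5 h, −1.67 ± 0.10 at 6 h and −0.50 ± 0.08 at 24 h. DHS1, the entry enzyme of the shikimate pathway, was lower at 1.5 h (−0.71 ± 0.07) and higher at 6 h (1.44 ± 0.07) and 24 h (0.74 ± 0.07).

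Downstream, the laccases and peroxidases that couple monolignols into lignin were mostly lower: of 17 tested of 18, none rose and 14 fell at 1.5 h, none rose and 12 fell at 6 h, and 1 rose and 13 fell at 24 h (medians −1.06, −1.16 and −1.33), with 15, 16 and 13 lower with library totals. PER64, a peroxidase of the Casparian strip, fell, with differences of −2.32 ± 0.11 at 1.5 h, −4.56 ± 0.28 at 6 h and −2.08 ± 0.09 at 24 h, and the laccase LAC5 fell at 6 h (−2.64 ± 0.25). The rise was that of the peroxidase AT2G41480, by 2.27 ± 0.20, at 24 h. Of 8 genes tested for glycosylation and transport of monolignols and related acids, 6 fell each time (medians −2.08, −2.18 and −0.60). With library totals 6, 7 and 5 fell. On the deposited scale 2 rose at 1.5 h, none at 6 h and 1 at 24 h. The 2 were the beta-glucosidase genes BGLU46 (0.88 ± 0.15) and BGLU45 (0.86 ± 0.31), the latter outside the rule for named genes, and neither was called with library totals. UGT72E2, which glucosylates monolignols, fell, with differences of −2.12 ± 0.12 at 1.5 h, −2.16 ± 0.13 at 6 h and −2.35 ± 0.11 at 24 h, whereas UGT84A1 went from −4.82 ± 0.33 at 1.5 h to 0.85 ± 0.13 at 24 h.

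The branches that draw on the same 4CL products differed. All 5 flavonoid genes fell at 1.5 h and 6 h (medians −4.24 and −3.13), among them the chalcone synthase TT4 (−3.04 ± 0.21 and −3.34 ± 0.21). At 24 h 2 were higher, the chalcone isomerase TT5 (1.05 ± 0.17) and F3H (0.47 ± 0.14, not called without the first As(V) or the second mock library of 24 h, at 0.47 and 0.35), and TT7 was lower (−1.04 ± 0.12). Of 4 coumarin genes 2 were tested. AT3G13610, the feruloyl-CoA hydroxylase that starts scopoletin synthesis, was higher at 1.5 h (0.78 ± 0.11) and 6 h (0.86 ± 0.11) and lower at 24 h (−0.37 ± 0.10), but with library totals it was 0.16, not called, at 1.5 h and −0.33, called lower, at 6 h. AT1G28680, the coumarin synthase COSY, fell, with differences of −0.93 ± 0.10 at 1.5 h, −0.73 ± 0.11 at 6 h and −0.57 ± 0.09 at 24 h.

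Of 20 regulators of the pathway 18 were tested, and 2 were higher and 3 lower at 1.5 h, 5 and 4 at 6 h, and 4 and 10 at 24 h (medians −0.17, −0.37 and −0.69). With library totals the counts were 2 and 10, 1 and 8, and 4 and 10 (medians −0.54, −0.94 and −0.66). MYB4, a repressor of C4H, fell, with differences of −2.09 ± 0.11 at 1.5 h, −2.36 ± 0.14 at 6 h and −2.22 ± 0.09 at 24 h. MYB15, an activator of lignin genes in defence, rose by 2.74 ± 0.37 at 1.5 h (adjusted p = 1.58e-04, limma) and was not called later, except lower at 24 h without the first mock library of that time (−1.50, adjusted p = 0.00201) or without weights (−1.01), and higher at 6 h with only the groups compared (0.56). REF4, a Mediator subunit that represses the pathway, rose by 0.94 ± 0.10 at 1.5 h, 2.28 ± 0.09 at 6 h and 0.52 ± 0.10 at 24 h, and AT1G15670 (KFB01), an F-box protein that marks PAL for degradation, fell, with differences of −1.32 ± 0.13 at 1.5 h, −1.17 ± 0.13 at 6 h and −1.38 ± 0.14 at 24 h. These 4 kept their direction with library totals. KNAT7, a homeodomain factor of secondary walls, rose by 1.36 ± 0.13 at 6 h, but by 0.18 and not called with library totals.

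Markers of the cells that carry lignin were mostly lower with As(V) too, as were the root markers. The medians at 1.5, 6 and 24 h were −1.77, −2.68 and −1.49 for endodermis and −0.62, −1.18 and −1.31 for xylem. They were −1.88, −1.84 and −1.24 for the 7 root markers and −1.16, −1.58 and −0.54 for the 10 genes. On the deposited scale the xylem median was thus lowest at 24 h, when that of the 10 genes was smallest in size. With library totals the xylem medians were −1.21, −2.20 and −1.24, lowest at 6 h. Those of the 10 genes were then −1.75, −2.76 and −0.44, also lowest at 6 h. All 9 endodermis markers were lower at 6 h and 24 h and 8 at 1.5 h, and all 9 were detected in every group; with library totals 9, 9 and 8 were lower at 1.5, 6 and 24 h. Their summed FPKM was 668 to 782 in mock and 245 to 255 with As(V) at 1.5 h, 533 to 542 and 83.2 to 86.4 at 6 h, and 586 to 688 and 211 to 222 at 24 h. Of 10 xylem markers, all detected, 7 were lower and none higher at 1.5 h, 7 and 1 at 6 h and 9 and none at 24 h. With library totals 9, 10 and 10 of these markers were lower. Their sum was 319 to 327 and 244 to 252 at 1.5 h, 244 to 274 and 173 to 182 at 6 h, and 334 to 349 and 117 to 121 at 24 h. The 1 higher marker at 6 h was XCP1 (0.29 ± 0.09), which with library totals was lower (−0.91). The lists overlap, with LAC4, LAC11 and LAC17 in both the polymerisation and xylem lists. PER64 is in the polymerisation, endodermis and root lists, and CASP1 is in both the endodermis and root lists. Their part in the falls of the lignin genes was not tested.

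**Figure D4:**
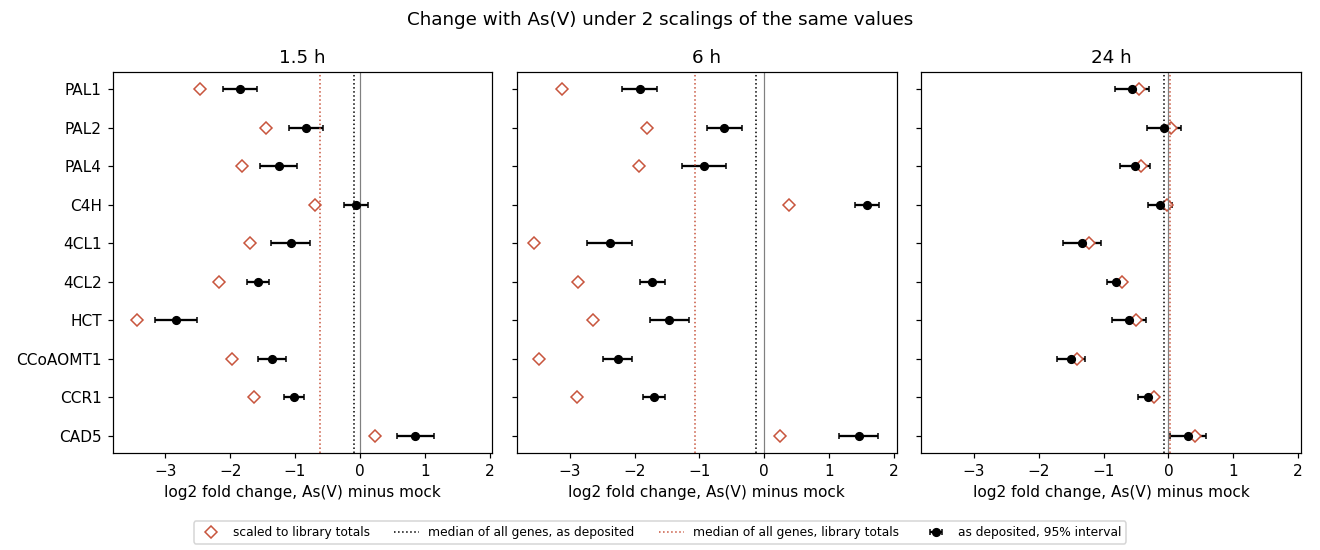
Log2 fold change with As(V) of the 10 genes (horizontal axes) at each time, on the deposited scale with 95% intervals (filled circles) and after scaling to library totals (open diamonds); dotted lines mark the median of all genes on each scale. At 1.5 and 6 h the diamonds lie to the left by about the distance between the dotted lines, and C4H and CAD5 stay to the right of both medians at 6 h.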

How the data were processed

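The deposited values are FPKM made by the authors. The submitters' processing notes name TAIR10 as the build and list edgeR, HTSeq 0.6.0, STAR 2.5.4 and Trim Galore, without saying what each did; the FPKM formula and the annotation version are not given in the sources used here. The deposited series table and the library files held the same values (largest difference 0). Within a gene, values were taken to be whole multiples of what 1 read is worth. This step could be found in 15788 of 23662 genes, 66.7%, allowing 0.05 reads of deviation and up to 3000 reads. A length relation fitted to these steps (exon length minus 204 bases, met by 640 of 3382 single-exon genes) filled in the other genes. Estimated reads were thus available for 32960 genes. They set the weights and the filter. The library sizes and the alternative scaling to library totals also rest on them.

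Genes with at least 1 FPKM and 10 estimated reads in at least 2 libraries (19826) were fitted on log2(FPKM + 1) with limma 3.58.1 in R 4.3.3, with 1 coefficient per group, voom weights and robust variances (6 residual degrees of freedom, median prior 4.76), and p-values were adjusted by Benjamini-Hochberg over all genes tested. The script was tested on simulated data in which few genes changed, in As(V) at 6 h alone, and libraries were scaled to their totals. That setting cannot test the scaling or the wide changes of these data. Fold changes on this scale understate changes of low genes. Alternatives were pseudocounts 0.1 and 5, no filter or 5 FPKM, no weights, the compared groups alone, library totals, median-of-ratios scaling, replicate number as a block, and each library left out.

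The 10 genes and all 11 gene lists (118 genes) were chosen with earlier results of these data known. Beyond the 10, genes named are the up to 2 largest called rises and falls per list and time with a mean of at least 5 FPKM, and for likeness the highest r (that for CCoAOMT1 is not reported here); others are marked in the text. Promoters were read from the RefSeq TAIR10.1 genome, in which all 10 genes were found by locus.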

Additional observations from a re-analysis of the deposited data

Results flagged for a closer look

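The results below were picked out because the As(V) minus mock difference of a gene differed between 2 times by limma's test of the difference itself (adjusted p below 0.05), and values are log2 differences on the deposited scale. From 1.5 to 6 h the value was 1.66 for C4H, 1.37 for HCT, 0.60 for CAD5, −1.32 for 4CL1, −0.91 for CCoAOMT1 and −0.69 for CCR1. Adjusted p ran from 1.16e-06 (C4H) to 0.0216 (CAD5).

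From 6 to 24 h it was 1.36 for PAL1, 0.55 for PAL2, 1.05 for 4CL1, 0.91 for 4CL2, 0.86 for HCT, 0.75 for CCoAOMT1 and 1.38 for CCR1, and −1.72 for C4H and −1.16 for CAD5. From 1.5 to 24 h it was 1.29 for PAL1, 0.77 for PAL2, 0.74 for PAL4, 0.75 for 4CL2, 2.23 for HCT, 0.69 for CCR1 and −0.55 for CAD5. On the deposited scale the 2 widest moves were those of HCT and of C4H, while PAL1, PAL2, PAL4 and 4CL2 showed no called move from 1.5 to 6 h.

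The size of the authors' scaling against the estimated reads moves with time in the As(V) libraries, and most of these values change with it. With library totals PAL1 (−0.65) and 4CL2 (−0.70) were called from 1.5 to 6 h, and the C4H moves were 1.07 there and −0.40 from 6 to 24 h, less than those of PAL1 (2.67), CCR1 (2.66), 4CL1 (2.32) and 4CL2 (2.15) from 6 to 24 h. PAL2 (1.85) and PAL4 (1.50) were called there too. From 1.5 to 24 h C4H (0.67) and CCoAOMT1 (0.57) were called higher on that scale. HCT moved by 0.80, 2.15 and 2.94 over the same 3 pairs of times, and CAD5 by 0.02, 0.15 and 0.18, none called.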

How the results depend on the processing

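Of 246 alternative values of the counts of genes, 239 stayed within 1.5 times the main value. With library totals the members higher numbered 0 at 1.5 h, 1 at 6 h and 1 at 24 h, and at 24 h CAD5 made 1 also with median-of-ratios scaling, with only the groups compared and with the replicate block. Leaving out 1 library gave 3 to 7 members changed in mock between 6 and 24 h (main 6), the 3 without the second mock library of 6 h. Leaving out libraries gave 8, 8 and 7 members lower with As(V) at 1.5, 6 and 24 h each time, and 10672 to 11497, 12697 to 13591 and 11299 to 11832 genes called (main 12627, 14524 and 13021). Replicate numbers shared between mock and As(V) were not shown to pair the samples (r of deviations −0.03, −0.01 and 0.14). With the replicate block 12746, 14619 and 13087 genes were called, and beyond CAD5 at 24 h it lost 4CL1 in mock from 1.5 to 24 h (0.39, adjusted p = 0.0588).

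Of 3822 alternative values of single genes and differences, 109 lost the call, 41 gained it, and 20 turned sign with a call on at least 1 side, all with library totals. Of the other 3652, which kept their side of the threshold, 3617 kept the sign and 35 turned it uncalled on both sides, 8 of these with library totals and 4 with median-of-ratios scaling. The 20 were, at 1.5 h with As(V), KNAT7 (−0.48), ATR1 (−0.34), XCP1 (−0.56) and MYB43 (−0.43), and at 6 h BGLU46 (−0.97), AT3G13610 (−0.33), ALDH2C4 (−1.06), ATR1 (−0.72), XCP1 (−0.91), CM2 (−0.12) and CB5-D (−1.20). For the effect at 24 h minus 6 h it was CAD5 (0.15), and at 24 h minus 1.5 h C4H (0.67), CCoAOMT1 (0.57) and CAD5 (0.18). Within As(V) it was CAD5 from 6 to 24 h (1.13), and PAL2 (0.31), C4H (0.34), CCoAOMT1 (0.65) and CAD5 (0.077) from 1.5 to 24 h. By construction library totals multiply all FPKM values of a library by 1 factor, and on the log2(FPKM + 1) scale low genes shift less. At 6 h the As(V) difference of PAL4 went from −0.92 to −1.93 and that of PAL1 from −1.92 to −3.12. PAL4, at 68 to 544 estimated reads, is the gene whose values depth limits most.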
